A study of Mus musculus with 4 samples.

Results

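The receptor programme of mammary hormone-sensing cells was examined through 7 of the 28693 features counted in the study: *Esr1*, *Pgr*, *Prlr*, *Foxa1*, *Cited1*, *Greb1* and *Tnfsf11*. The members were taken by gene symbol, and each symbol was listed for 1 feature. Their UMIs (unique molecular identifiers, counted as RNA molecules) were summed per library in epithelial cells, meaning cells with at least 10 UMIs of *Krt8* plus *Krt18* per 10000, and in hormone-sensing cells, meaning epithelial cells with a UMI of at least 3 of the 7 members. This gave 15252 epithelial cells of 18200 kept, of which 2909 were hormone-sensing. The comparison asked whether a member that fell in the epithelium fell because fewer cells carried it or because each such cell carried less.

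The data were 10x Genomics 3′ single-cell libraries from 4 adult nulliparous mice, 1 library per mouse, with gland pairs 3 to 5 of a mouse pooled and live cells sorted with Calcein Blue. The 2 CTL mice (labelled WT) were floxed at both genes (Lats1f/f;Lats2f/f), had the R26-lsl-EYFP reporter in the heterozygous state and carried no Cre. Both LATS1/2-KO mice had the same floxed alleles plus Krt8-CreERT2, with the EYFP reporter heterozygous in replicate 1 and homozygous in replicate 2. All 4 mice, CTL included, received 2 mg tamoxifen into the peritoneum on 5 days in a row and were collected 7 days after the last dose. The *Krt8* promoter drives the recombinase in *Krt8*-expressing cells, the EYFP reporter is switched on by the same recombinase, and the gland therefore held recombined and unrecombined cells side by side. Because CTL mice lacked Cre, an effect of Cre itself and an effect of the deletion cannot be told apart, and the stage of the oestrous cycle was not given in the sources used here.

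Hormone-sensing luminal cells are the mammary cells that carry the receptors for oestrogen, progesterone and prolactin. The oestrogen receptor encoded by *Esr1* is a ligand-activated transcription factor that works with the pioneer factor FOXA1 and the coactivator CITED1, and *Pgr* and *Greb1* are among its best-known target genes. The progesterone receptor in turn induces *Tnfsf11*, which encodes RANKL, a ligand that signals to the RANK receptor on neighbouring cells. The prolactin receptor is a membrane receptor that signals through the kinase JAK2 and the transcription factor STAT5. LATS1 and LATS2 are the kinases of the Hippo pathway that hold back the coactivators YAP and TAZ, whose DNA-binding partners are the TEAD factors.

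The stretches just before the members' transcription starts are shown because the members parted into those that were lower in LATS1/2-KO hormone-sensing cells (*Pgr*, *Prlr*, *Cited1*) and those that were higher (*Greb1*, *Tnfsf11*). They are the 250 bases before a start site in RefSeq (GRCm38.p6), written 5′ to 3′ on the gene's own strand. Start sites of a gene are numbered by rising chromosome position, whichever its strand. Capitals mark letters that match a searched motif on either strand. *Prlr* lies at chr15:10177238-10349180 on the plus strand (GENCODE vM21, GRCm38), and the window shown is that of its second start site, chr15:10223656-10223905. *Pgr* lies at chr9:8899833-8968611 on the plus strand, with the window chr9:8899583-8899832. *Cited1* lies at chrX:102247381-102252181 on the minus strand, with the window chrX:102250777-102251026 of its first start site. *Greb1* lies at chr12:16670615-16800886 on the minus strand, with the window chr12:16800887-16801136 of its second start site. *Tnfsf11* lies at chr14:78277445-78308043 on the minus strand, with the window chr14:78308044-78308293.
Prlr: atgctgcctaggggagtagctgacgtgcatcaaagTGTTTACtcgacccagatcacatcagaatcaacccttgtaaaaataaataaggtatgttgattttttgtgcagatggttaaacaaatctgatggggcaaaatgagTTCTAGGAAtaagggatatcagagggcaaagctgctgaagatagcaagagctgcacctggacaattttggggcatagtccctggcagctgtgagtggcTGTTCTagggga
Pgr: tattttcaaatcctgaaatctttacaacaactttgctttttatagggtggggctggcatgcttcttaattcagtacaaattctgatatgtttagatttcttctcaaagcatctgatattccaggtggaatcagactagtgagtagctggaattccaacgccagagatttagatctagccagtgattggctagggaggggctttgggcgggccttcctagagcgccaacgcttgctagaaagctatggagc
Cited1: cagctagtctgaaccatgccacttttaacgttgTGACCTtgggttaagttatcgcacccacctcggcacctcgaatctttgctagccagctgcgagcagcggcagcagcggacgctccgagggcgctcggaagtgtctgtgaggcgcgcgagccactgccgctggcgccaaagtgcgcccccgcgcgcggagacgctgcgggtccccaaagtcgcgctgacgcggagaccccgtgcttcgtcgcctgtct
Greb1: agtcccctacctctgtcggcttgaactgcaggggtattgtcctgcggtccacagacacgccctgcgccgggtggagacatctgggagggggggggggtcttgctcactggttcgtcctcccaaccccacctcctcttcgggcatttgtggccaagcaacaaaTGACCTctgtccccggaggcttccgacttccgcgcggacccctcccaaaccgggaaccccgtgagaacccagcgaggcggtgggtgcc
Tnfsf11: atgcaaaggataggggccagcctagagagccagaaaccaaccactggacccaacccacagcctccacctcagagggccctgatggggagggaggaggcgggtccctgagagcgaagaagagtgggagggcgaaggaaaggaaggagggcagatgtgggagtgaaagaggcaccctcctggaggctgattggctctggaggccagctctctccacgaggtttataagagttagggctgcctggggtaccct
The *Prlr* window held a forkhead match (TGTTTAC), a STAT5 match (TTCNNNGAA) and a progesterone response element half-site (TGTTCT). Those of *Cited1* and *Greb1* each held 1 oestrogen response element half-site (AGGTCA, read on the other strand as TGACCT), while the *Pgr* and *Tnfsf11* windows matched none of the 7 motifs searched. The windows shown for *Prlr*, *Cited1* and *Greb1* are those with a match, and their other start sites (2 each for *Prlr* and *Cited1*, 1 for *Greb1*) matched none. Over all 13 start sites of the members, the oestrogen half-site, the forkhead motif and the STAT5 motif were each found in 2 and the progesterone half-site in 1, none matched the full oestrogen response element (GGTCANNNTGACC) or the GATA motif (AGATAA), and 1, of *Esr1*, matched the TEAD motif (GGAATG), with letters that overlapped a STAT5 match. Among 32851 promoter windows of the same length, the half-site for oestrogen was present in 14.0%, the TEAD motif in 12.6%, the forkhead motif in 3.17%, the STAT5 motif in 7.02%, the half-site for progesterone in 16.1%, the GATA motif in 9.99% and the full oestrogen response element in 0.0639%. *Esr1* (chr10:4611593-5005614, plus strand) and *Foxa1* (chr12:57540628-57546916, minus strand) complete the set.

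Each library held 38792520 to 46810771 UMIs in 3515 to 5272 kept cells, with medians of 5962.5 to 10141 UMIs per cell. Pairs of libraries shared 4 to 12 cell barcodes. The deletion itself could be checked only in part, since 3′ tags need not fall in the floxed exons. *Lats1* was measured at 24.0 and 24.0 UMIs per 1000000 UMIs of the summed cells (CPM) in CTL epithelial cells and at 16.5 and 17.3 CPM in LATS1/2-KO, lower in both mice (log2 fold change −0.75 ± 0.08 SE, edgeR adjusted p = 0.00146). *Lats2* tags went the other way, from 13.9 and 15.2 CPM to 28.4 and 30.7 CPM (0.78 ± 0.09, edgeR adjusted p = 0.00162). Within LATS1/2-KO epithelial cells, *Lats1* stood at 10.6 and 11.5 CPM where an *EYFP* UMI was seen and at 19.1 and 21.3 CPM where none was. In hormone-sensing cells, defined above, *Lats1* stood at 21.8 and 22.4 CPM in CTL and at 21.7 and 17.7 CPM in LATS1/2-KO. The value of LATS1/2-KO replicate 1 was thus almost that of CTL replicate 1, and the deletion was not tested in that class.

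The hormone-sensing label was set beside clusters named from marker genes. The list that named hormone-sensing-like clusters included the members *Prlr*, *Pgr*, *Esr1*, *Cited1* and *Foxa1*. The overlap below is thus partly built in and is no independent check. Of the 2909 cells, 94.6% lay in the 3 clusters named luminal hormone-sensing-like, 96.2% and 96.6% in CTL and 88.4% and 85.3% in LATS1/2-KO. Most CTL cells of this kind sat in cluster 2 (1299 and 990 cells) and most LATS1/2-KO cells in cluster 9 (441 and 128 cells), so that the comparisons below set cells of different clusters side by side. The gate on *Krt8* and *Krt18* was wider than the luminal cells: 48.9% of gated cells were hormone receptor negative-like, 20.1% hormone-sensing-like, 20% unnamed and 4.37% basal-like, and it also passed 335 of 794 macrophage-like and 223 of 605 endothelial-like cells. Outside the gate, 4 cells carried 3 or more members: 2 of 431, 1 of 261, 0 of 520 and 1 of 1736 in CTL replicates 1 and 2 and LATS1/2-KO replicates 1 and 2.

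Hormone-sensing cells made up a smaller part of the LATS1/2-KO epithelium. They were 28.9% of epithelial cells in CTL replicate 1 (1295 of 4483, exact binomial 95% interval 27.6 to 30.2) and 31.7% in CTL replicate 2 (1031 of 3254, 30.1 to 33.3). In LATS1/2-KO they were 11.2% in replicate 1 (447 of 3979, 10.3 to 12.3) and 3.85% in replicate 2 (136 of 3536, 3.24 to 4.53). The groups did not overlap, and the intervals, which cover counting error only, left both LATS1/2-KO mice below both CTL mice and apart from each other. The mean share was 30.3% ± 1.98 (SD, n = 2) in CTL and 7.54% ± 5.22 (SD, n = 2) in LATS1/2-KO, a difference of −22.7 percentage points or 4.02-fold. A two-sided exact permutation test over 2 against 2 mice gave p = 0.333, the smallest this design allows.

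The share rests on detecting at least 3 members, which depends on depth and on the level of those members, so it was also counted in other ways. Epithelial cells with no member detected were 32.7% and 31.1% in CTL and 60.7% and 69.3% in LATS1/2-KO. Just below the limit, 384, 242, 208 and 134 cells in CTL replicates 1 and 2 and LATS1/2-KO replicates 1 and 2 had exactly 2 members, and just above it 310, 155, 159 and 41 had exactly 3. Hormone-sensing cells were also the deeper cells, with medians of 13157 and 17088 UMIs in CTL and 9311 and 10830.5 in LATS1/2-KO. With every cell thinned to 2000 UMIs the shares were 12.6%, 12.6%, 4.24% and 1.62%, a 4.30-fold difference. The clusters, an alternative chosen after the data had been seen, gave 31.2%, 32.1%, 12.3% and 4.10%. Cells with at least 3 of 8 hormone-sensing markers that are no members were 29.9%, 32.5%, 16.5% and 8.29%, and of these 94.7% and 94.4% in CTL but 63.0% and 42.7% in LATS1/2-KO lay in hormone-sensing-like clusters. With at least 2 of these 8 markers the shares were 38.8%, 40.6%, 30.7% and 24.2%, a 1.45-fold difference, and with at least 4 members the difference was 4.93-fold. Each of these definitions put both LATS1/2-KO mice below both CTL mice, by 1.45-fold to 4.93-fold on the means.

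**Figure D1:**
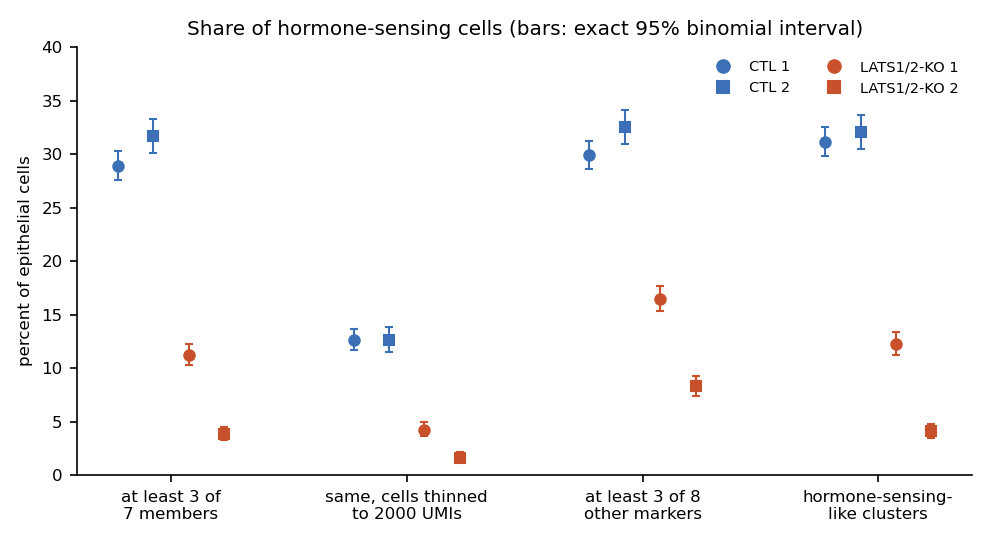
Share of hormone-sensing cells among epithelial cells, in percent, for each of the 4 libraries under 4 definitions; points are libraries and bars exact 95% binomial intervals. Both LATS1/2-KO libraries lie below both CTL libraries under each definition, and the shares fall to 12.6% or less when cells are thinned to 2000 UMIs.

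In the epithelium as a whole, 5 of the 7 members fell in LATS1/2-KO, 1 rose and 1 did not pass the test. With edgeR's quasi-likelihood test, 28.1% of the 14913 genes tested fell and 30.8% rose at an adjusted p under 0.05, so a call in this comparison was common. Values below are in CPM and in the order CTL replicates 1 and 2, LATS1/2-KO replicates 1 and 2, and levels are compared within a gene only.

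Among the receptors, *Prlr* stood at 1487, 1416, 174 and 73.0 CPM in epithelial cells (−3.80 ± 0.43 log2, adjusted p = 0.00145 by edgeR). *Pgr* stood at 75.2, 74.7, 13.7 and 4.60 CPM (−3.27 ± 0.48, edgeR adjusted p = 0.00314). *Esr1* stood at 21.3, 19.7, 11.2 and 6.0 CPM (−1.49 ± 0.29, edgeR adjusted p = 0.00787). For each receptor both CTL values lay close together, both LATS1/2-KO values lay below them, and replicate 2, which had fewer hormone-sensing cells, was the lower of the LATS1/2-KO pair. In the same sums the 8 basal markers stood at 71.5, 67.9, 2073 and 1764 CPM and the 6 fibroblast markers at 80.8, 288, 980 and 654 CPM, both higher in LATS1/2-KO, and their part in the epithelial differences was not tested.

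Of the receptor's partners, *Cited1* was measured at 459, 492, 47.6 and 25.5 CPM (−3.94 ± 0.31, edgeR adjusted p = 0.000556) and *Foxa1* at 68.4, 68.3, 23.6 and 10.5 CPM (−2.24 ± 0.36, edgeR adjusted p = 0.00438). *Greb1* and *Tnfsf11*, downstream members like *Pgr*, did not fall with it. *Greb1* was measured at 3.93, 13.8, 16.5 and 5.83 CPM, with overlapping groups (0.10 ± 0.70, edgeR adjusted p = 0.911). *Tnfsf11* was rare in CTL, with 42 and 7 UMIs in all epithelial cells against 153 and 115 in LATS1/2-KO, or 0.928, 0.168, 4.31 and 3.21 CPM (2.51 ± 0.65, edgeR adjusted p = 0.0208). That call was lost without LATS1/2-KO replicate 1 (edgeR adjusted p = 0.0704).

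**Figure D2:**
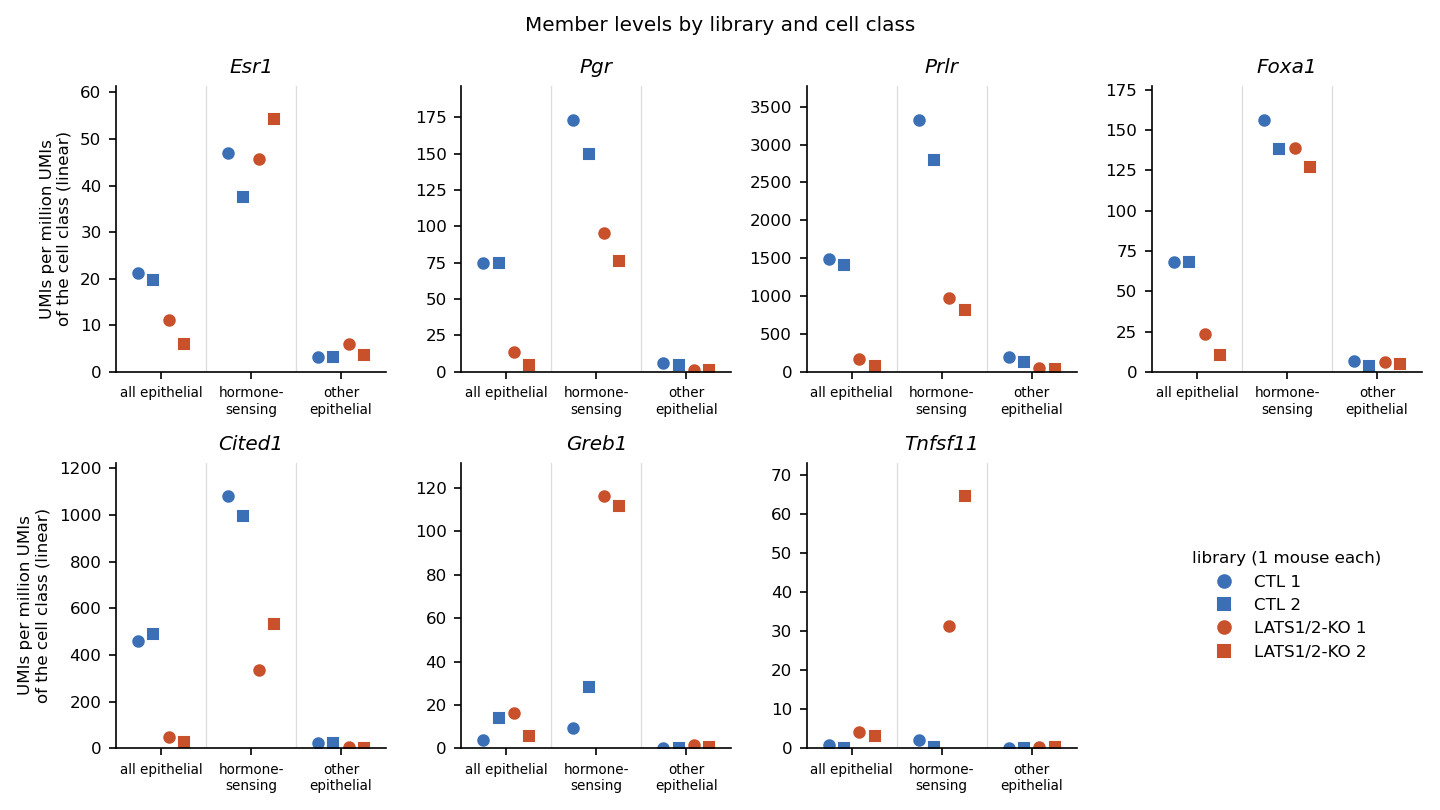
Level of each member in CPM (linear axis, 1 panel per gene) in all epithelial cells, in hormone-sensing cells by the rule and in the other epithelial cells; each point is 1 library and 1 mouse. *Esr1* and *Foxa1* differ between the conditions in all epithelial cells but lie close together in hormone-sensing cells, where *Greb1* and *Tnfsf11* are higher in both LATS1/2-KO mice.

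Within hormone-sensing cells the members split into 3 kinds: 3 fell, 2 rose and 2 did not pass the test. Since a member that helps to choose the cells is tied to its own level there, each member was tested in epithelial cells with at least 3 of the other 6 members, and the values below are for those cells. Over all genes in hormone-sensing cells by the rule, 15.1% fell and 15.7% rose.

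*Esr1* was measured at 45.2, 36.9, 39.7 and 52.0 CPM, with groups that overlapped (log2 fold change 0.08 ± 0.17, edgeR adjusted p = 0.77). *Foxa1* was measured at 156, 137, 133 and 126 CPM, the LATS1/2-KO values lying just below those of CTL (−0.20 ± 0.11, edgeR adjusted p = 0.224). For the oestrogen receptor and its pioneer factor the test thus did not separate the groups. In cells chosen by at least 3 of the 8 other markers, however, both were lower (*Esr1* −0.90 ± 0.18, edgeR adjusted p = 0.00965, and *Foxa1* −1.23 ± 0.21, edgeR adjusted p = 0.00621), and in LATS1/2-KO many of those cells lay outside the hormone-sensing-like clusters, as the shares above show.

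*Prlr* fell in hormone-sensing cells, from 3430 and 2862 CPM in CTL to 1119 and 906 CPM in LATS1/2-KO (−1.66 ± 0.16, edgeR adjusted p = 0.00223). *Cited1* fell from 1087 and 1018 CPM to 323 and 581 CPM (−1.28 ± 0.25, edgeR adjusted p = 0.0139). *Pgr* fell from 171 and 149 CPM to 86.6 and 72.3 CPM (−1.05 ± 0.13, edgeR adjusted p = 0.00454). None of the 3 overlapped between groups. When cells were first thinned to 2000 UMIs and then chosen, *Prlr* kept its call while *Cited1* (−0.45, edgeR adjusted p = 0.300) and *Pgr* (−0.05, edgeR adjusted p = 0.947) lost theirs. That choice left 538, 400, 150 and 50 hormone-sensing cells by the rule.

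*Greb1* rose in hormone-sensing cells, from 9.02 and 27.8 CPM to 105 and 105 CPM (2.45 ± 0.47, edgeR adjusted p = 0.0114). The fold was much the same without LATS1/2-KO replicate 1 (2.43, adjusted p = 0.0990 by edgeR) or replicate 2 (2.48, adjusted p = 0.0677 by edgeR), though the call was lost, and it was 1.87 without CTL replicate 1 and 3.48 without CTL replicate 2. In cells chosen by the 8 other markers it was smaller and not called, at 1.31 with at least 3 (edgeR adjusted p = 0.0886) and 0.55 with at least 2 (edgeR adjusted p = 0.501). *Tnfsf11* rose from 2.20 and 0.350 CPM to 28.8 and 64.3 CPM (5.06 ± 0.69, edgeR adjusted p = 0.00431), on 41 and 7 UMIs in CTL and 133 and 105 in LATS1/2-KO. This call held under all 20 alternatives run, which ranged from 2.94 to 6.83.

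The same order appeared in the share of cells with a UMI at equal depth. In hormone-sensing-like clusters thinned to 2000 UMIs, *Prlr* was detected in 98.8%, 98.1%, 81.3% and 75.9% of cells and *Cited1* in 65.9%, 68.5%, 36.8% and 53.8%. *Pgr* was detected in 28.2%, 27.6%, 21.3% and 18.6%, a narrower gap than that of its CPM. *Esr1* was seen in 9.56%, 7.09%, 7.16% and 10.3% and *Foxa1* in 27.6%, 23.6%, 25.5% and 17.2%. Detection rose to 22.1% and 23.4% from 1.49% and 5.92% for *Greb1* and to 6.53% and 7.59% from 0.224% and 0.194% for *Tnfsf11*. Without thinning, at medians of 12515, 16527, 8471.5 and 10279 UMIs, the shares for *Prlr* were 99.9%, 99.9%, 97.1% and 97.9%, and those for *Tnfsf11* 2.07%, 0.671%, 13.1% and 20%. Lymphocyte-like cells gave a *Prlr* UMI in 15.4%, 13.9%, 8.57% and 1.54% of cells and a *Cited1* UMI in 6.91%, 10.1%, 0% and 0%, at medians of 2657.5, 3082, 1557 and 2167 UMIs. Low shares of cells were thus also seen outside the hormone-sensing-like clusters, and the part of free RNA in them was not tested.

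Markers of other cells also differed between the conditions in hormone-sensing cells. The 6 fibroblast markers summed to 95.6, 563, 994 and 908 CPM, with *Col1a1* at 0.375, 1.70, 119 and 124 CPM, and the 8 basal markers to 43.8, 22, 645 and 346 CPM, with *Oxtr* and *Trp63* at 0 in LATS1/2-KO replicate 2. The 9 receptor-negative luminal markers summed to 3016, 3285, 2342 and 1554 CPM. Their part in the differences above was not tested. Outside the hormone-sensing-like clusters *Tnfsf11* was highest in lymphocyte-like sums (0 to 8.70 CPM, 8 UMIs in 432 cells) and fibroblast-like sums (0 to 4.47 CPM, 27 UMIs in 1145 cells), and none was seen in 1175 basal-like cells.

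**Figure D3:**
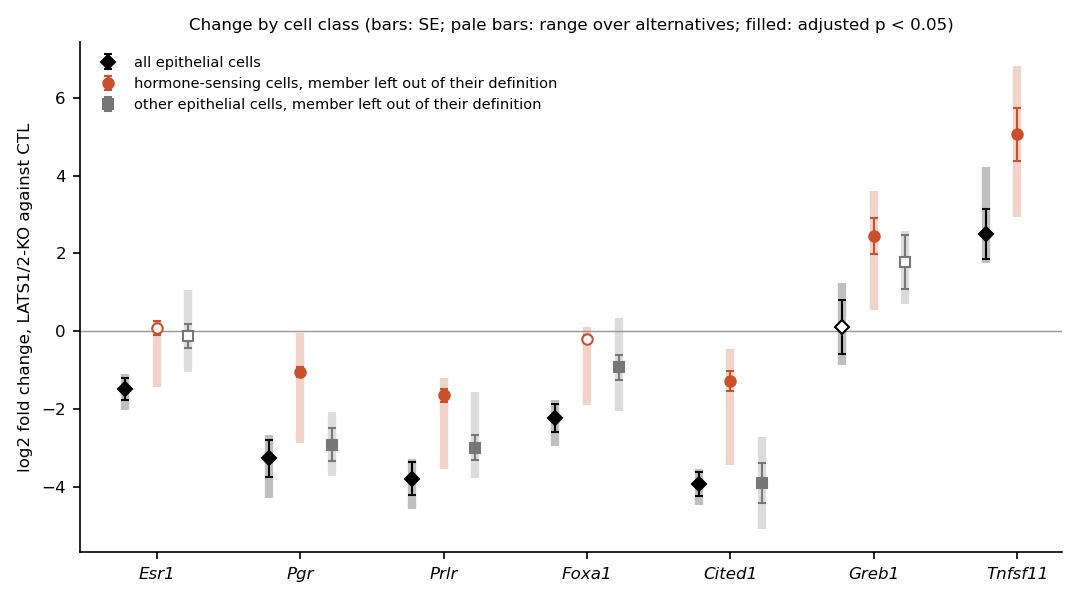
Log2 fold change of each member, LATS1/2-KO against CTL, in all epithelial cells (diamonds), in hormone-sensing cells (circles) and in the other epithelial cells (squares), the last 2 chosen by the other 6 members; thin bars are SE, pale bars the range over the alternatives, and filled symbols have an edgeR adjusted p under 0.05. In hormone-sensing cells *Esr1* and *Foxa1* lie near 0, *Pgr*, *Prlr* and *Cited1* below it and *Greb1* and *Tnfsf11* above it.

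The share of cells and the level within them could be set side by side by exchanging them between conditions. Hormone-sensing cells supplied 38.5% to 44.7% of epithelial UMIs in CTL and 5.92% to 8.77% in LATS1/2-KO, depending on the member left out. With the LATS1/2-KO share of UMIs and the CTL levels, the epithelial level of *Esr1* would be 37.0% of CTL, against 43.1% measured, and with the CTL share and the LATS1/2-KO levels it would be 113%. *Foxa1* gave 32.3% from the share and 86.1% from the levels, with 24.8% measured. For these 2 genes the exchange of the share alone came near the measured value and the exchange of levels did not. Both the share and the levels here rest on cells chosen by the other members. Of these, *Pgr*, *Prlr* and *Cited1* were themselves lower in LATS1/2-KO hormone-sensing cells, and the share depends on their level. In cells chosen by markers that are no members, *Esr1* and *Foxa1* were both lower, as given above. The exchange was not run with those cells, so its outcome there was not tested.

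*Pgr*, *Prlr* and *Cited1* were lowered by both exchanges. The share alone gave 36.3%, 39.0% and 35.5% of CTL, the levels alone gave 45.7%, 29.4% and 38.7%, and the measured levels were 11.8%, 8.29% and 8.70%. *Greb1* and *Tnfsf11* went in opposite directions: the share alone would have left 24.6% and 22.2% of CTL, while the levels alone would have given 566% and 3636%, and 131% and 779% were measured. These are arithmetic on group means of 2 mice and carry no test.

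**Figure D4:**
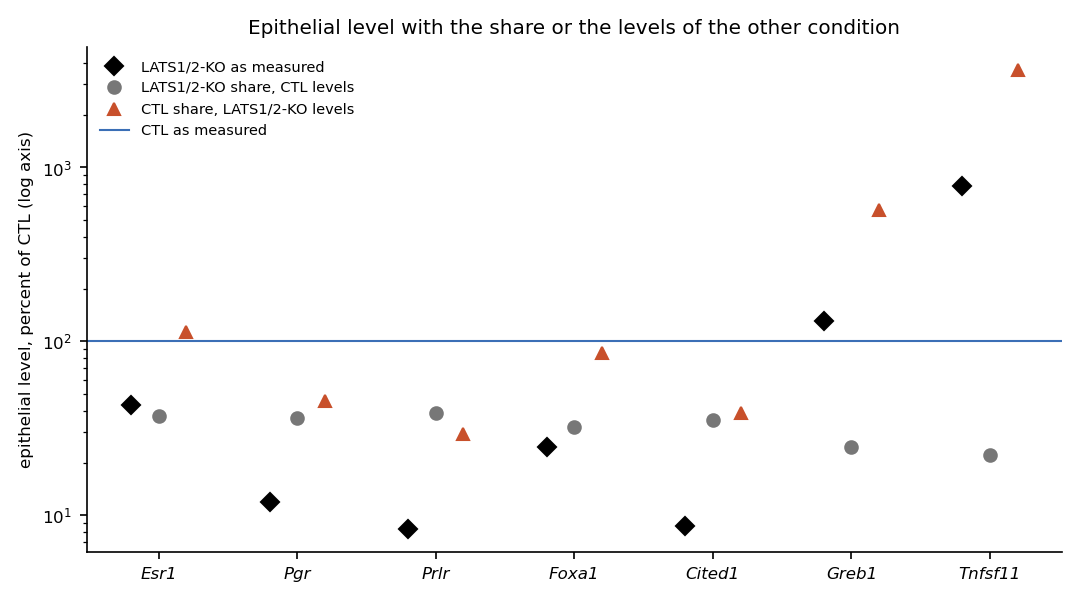
Epithelial level of each member as percent of CTL (log axis) as measured in LATS1/2-KO (diamonds), with the LATS1/2-KO share of hormone-sensing UMIs and CTL levels (circles), and with the CTL share and LATS1/2-KO levels (triangles). Hormone-sensing cells are those chosen by the other members. *Esr1* and *Foxa1* stay near 100% when only levels are exchanged (113% and 86.1%), and *Pgr*, *Prlr* and *Cited1* fall under both exchanges. *Greb1* and *Tnfsf11* lie above CTL as measured and with levels exchanged, and below it with the share exchanged.

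Outside the hormone-sensing cells, 4 of the 6 members that could be tested fell in LATS1/2-KO, against 29.8% of all genes tested there. *Prlr* was measured at 473, 341, 84.8 and 45.1 CPM in epithelial cells with fewer than 3 of the other members (−3.00 ± 0.33, edgeR adjusted p = 0.000610) and *Cited1* at 109, 87.2, 13.1 and 3.71 CPM (−3.91 ± 0.52, edgeR adjusted p = 0.00133). *Pgr* was measured at 19.3, 11.9, 3.81 and 1.54 CPM (−2.92 ± 0.43, edgeR adjusted p = 0.00187). *Foxa1* (15.4, 10.8, 11.5 and 6.27 CPM, −0.94 ± 0.31, edgeR adjusted p = 0.0373) had overlapping groups and was called in 13 of 20 alternatives. It was not called without CTL replicate 1 (−0.66) or LATS1/2-KO replicate 2 (−0.55), with a gate of at least 20 UMIs of *Krt8* plus *Krt18* per 10000 (−0.85), when cells were chosen by at least 2 members (−0.35), at least 3 of 8 other markers (−0.91) or cluster (−0.23), and with free RNA subtracted (0.34). *Esr1* (5.14, 4.37, 7.43 and 3.99 CPM, −0.13 ± 0.31 after TMM scaling, although the mean CPM was higher in LATS1/2-KO) and *Greb1* (0.375, 0.971, 4.51 and 1.40 CPM, 1.77 ± 0.69, edgeR adjusted p = 0.0630) did not pass, and *Tnfsf11*, with 1, 0, 20 and 10 UMIs, was not tested.

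The levels in other epithelial cells depended on how these cells were chosen, and a cell with 3 members counts among them when 1 of its members is left out. Cells outside the gate carried *Cited1* at 19.4, 22.3, 1.51 and 1.24 CPM and *Pgr* at 16.2, 11.1, 1.21 and 3.59 CPM, and epithelial cells outside the hormone-sensing-like clusters carried *Cited1* at 12.3, 11.2, 3.83 and 0.933 CPM and *Pgr* at 5.55, 5.07, 2.03 and 1.31 CPM. In CTL both genes were thus, outside those clusters, at or below the level of cells outside the gate, whereas *Cited1* in cells chosen by the other members was above it. Cells outside the gate are of several classes, and the part of background RNA in these levels was not tested. By cluster both were still lower in LATS1/2-KO (*Cited1* −2.72 ± 0.52, edgeR adjusted p = 0.00403, and *Pgr* −2.07 ± 0.26, edgeR adjusted p = 0.000639). *Prlr* was above the level outside the gate: 92.3, 97.8, 46.9 and 37.1 CPM outside those clusters against 66.6, 28.7, 5.44 and 1.68 CPM outside the gate. With free RNA subtracted, *Prlr* was called in the other epithelial cells (−2.32 ± 0.65, edgeR adjusted p = 0.0275). *Pgr* kept its fold there but with a larger error (−3.25 ± 1.97, edgeR adjusted p = 0.207), and *Cited1* did not pass the filter on low counts and was not tested.

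A test of the difference between cell classes asked whether a member changed by a different amount in hormone-sensing and in other epithelial cells. It called *Cited1* (2.56 ± 0.66 log2 less decrease in hormone-sensing cells, edgeR adjusted p = 0.0380) and *Pgr* (1.85 ± 0.49, edgeR adjusted p = 0.0417), 2 of 7 members against 15.9% of all genes. *Prlr* (1.40 ± 0.40, edgeR adjusted p = 0.0526), *Foxa1* (0.80 ± 0.37, edgeR adjusted p = 0.180), *Esr1*, *Greb1* and *Tnfsf11* did not pass. Both classes came from the same 4 mice, which this test did not take into account. For the fit with the mouse as block the share of all genes called was not computed. With that block 4 members were called, *Prlr* (1.44, edgeR adjusted p = 0.000174) and *Foxa1* (0.77, edgeR adjusted p = 0.0229) in addition to *Cited1* (2.60, edgeR adjusted p = 0.00706) and *Pgr* (1.78, edgeR adjusted p = 0.00198). Without it, the *Pgr* call was lost without any 1 of the 4 libraries (edgeR adjusted p = 0.0531 to 0.101) and the *Cited1* call without CTL replicate 1 (edgeR adjusted p = 0.107) or CTL replicate 2 (edgeR adjusted p = 0.0898).

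The *EYFP* reporter allowed cells of the same LATS1/2-KO mouse to be compared. An *EYFP* UMI was present in 12.5% and 22.8% of hormone-sensing cells and in 19.3% and 25% of other epithelial cells in LATS1/2-KO replicates 1 and 2, against 0.282% to 0.582% in CTL. After thinning to 2000 UMIs the shares in replicate 1 were 3.38% in hormone-sensing cells (exact binomial 95% interval 1.90 to 5.51) and 9.99% in the others (8.95 to 11.1), and in replicate 2 they were 13.2% (8.04 to 20.1) and 13.1% (11.9 to 14.3). At equal depth the intervals were apart in replicate 1 and overlapped in replicate 2. Epithelial cells with an *EYFP* UMI were also deeper, with medians of 13145 against 5925 UMIs in replicate 1 and 14934.5 against 5965 in replicate 2. In a cell without an *EYFP* UMI the reporter may have been missed, so it is not a cell known to be unrecombined. An *EYFP* UMI was also seen in other LATS1/2-KO cell classes, given here for replicates 1 and 2. It was in 2.86% and 3.08% of lymphocyte-like, 3.08% and 3.11% of macrophage-like and 2.28% and 4.94% of endothelial-like cells. After thinning these shares were 0% and 2.94%, 0% and 1.39%, and 0.515% and 2.49%. Nor is a cell with an *EYFP* UMI known to be recombined, and the part of free RNA was not tested.

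*EYFP*+ and *EYFP*− cells also lay in different clusters. Of *EYFP*+ epithelial cells, 41 of 737 and 28 of 880 lay in hormone-sensing-like clusters and 80.2% and 77.7% in unnamed ones, against 447 of 3242 and 117 of 2656 and 29.1% and 27.0% of *EYFP*− cells. The levels over all epithelial cells therefore set different mixtures of cells side by side.

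Among all epithelial cells of LATS1/2-KO, 5 of the 7 members were lower in *EYFP*+ than in *EYFP*− cells with the mouse as block, against 23.0% of all genes. *Cited1* was at 13.2 against 62.7 CPM in replicate 1 and 7.19 against 38.0 CPM in replicate 2 (−2.28 ± 0.10, edgeR adjusted p = 2.59e-07). *Greb1* was at 3.59 against 22.2 and 1.66 against 8.65 CPM (−2.49 ± 0.17, edgeR adjusted p = 2.42e-06). *Tnfsf11* rested on 8 and 5 UMIs in *EYFP*+ cells against 145 and 110 in *EYFP*− cells (−3.36 ± 0.33, edgeR adjusted p = 3.02e-05). *Pgr* (−1.38 ± 0.17) and *Prlr* (−1.11 ± 0.12) were lower too, though neither passed without the block. Of the 3 alternatives run, *Pgr* was called in 1 and *Prlr* in 2. *Esr1* (−0.05 ± 0.14, edgeR adjusted p = 0.794) and *Foxa1* (−0.25 ± 0.16, edgeR adjusted p = 0.219) did not pass.

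Within hormone-sensing cells, where 56 and 31 cells carried an *EYFP* UMI, 57.1% and 58.1% of them lay in hormone-sensing-like clusters and 39.3% and 41.9% in unnamed ones, while 92.8% and 93.3% of the *EYFP*− cells lay in the former. The *EYFP*+ hormone-sensing cells were also deeper, with medians of 13740.5 against 9003 UMIs in replicate 1 and 15649 against 10382 in replicate 2. Passing the rule depends on depth, and this comparison was not run in thinned cells, so the part of depth in it was not tested. With the member left out of the rule, *Prlr* and *Foxa1* were left with fewer than 20 *EYFP*+ cells in a mouse and were not tested. The other 5 members were lower in *EYFP*+ cells, against 7.17% of genes: *Tnfsf11* (−3.21 ± 0.39), *Greb1* (−1.73 ± 0.21), *Cited1* (−1.70 ± 0.13), *Esr1* (−0.97 ± 0.32) and *Pgr* (−0.81 ± 0.22). The *Tnfsf11* value rested on 6 and 2 UMIs in *EYFP*+ cells. *Esr1* was near the threshold (edgeR adjusted p = 0.0435) and lost its call without the block (edgeR adjusted p = 0.199). *Greb1* and *Tnfsf11*, the members that were higher in LATS1/2-KO than in CTL, were thus lower where the reporter was seen. In hormone-sensing-like clusters *Tnfsf11* was at 35.7 and 83.0 CPM in *EYFP*− cells and at 9.93 and 0 CPM in *EYFP*+ cells (139 and 101 against 5 and 0 UMIs), and *Greb1* at 126 and 131 against 67.5 and 45.7 CPM. *Esr1* in these clusters was at 42.9 and 60.0 against 29.8 and 31.4 CPM, on 15 and 11 UMIs in *EYFP*+ cells, and *Pgr* at 96.6 and 81.3 against 93.3 and 59.9 CPM. The *Pgr* values of replicate 1 lay close together within the clusters.

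**Figure D5:**
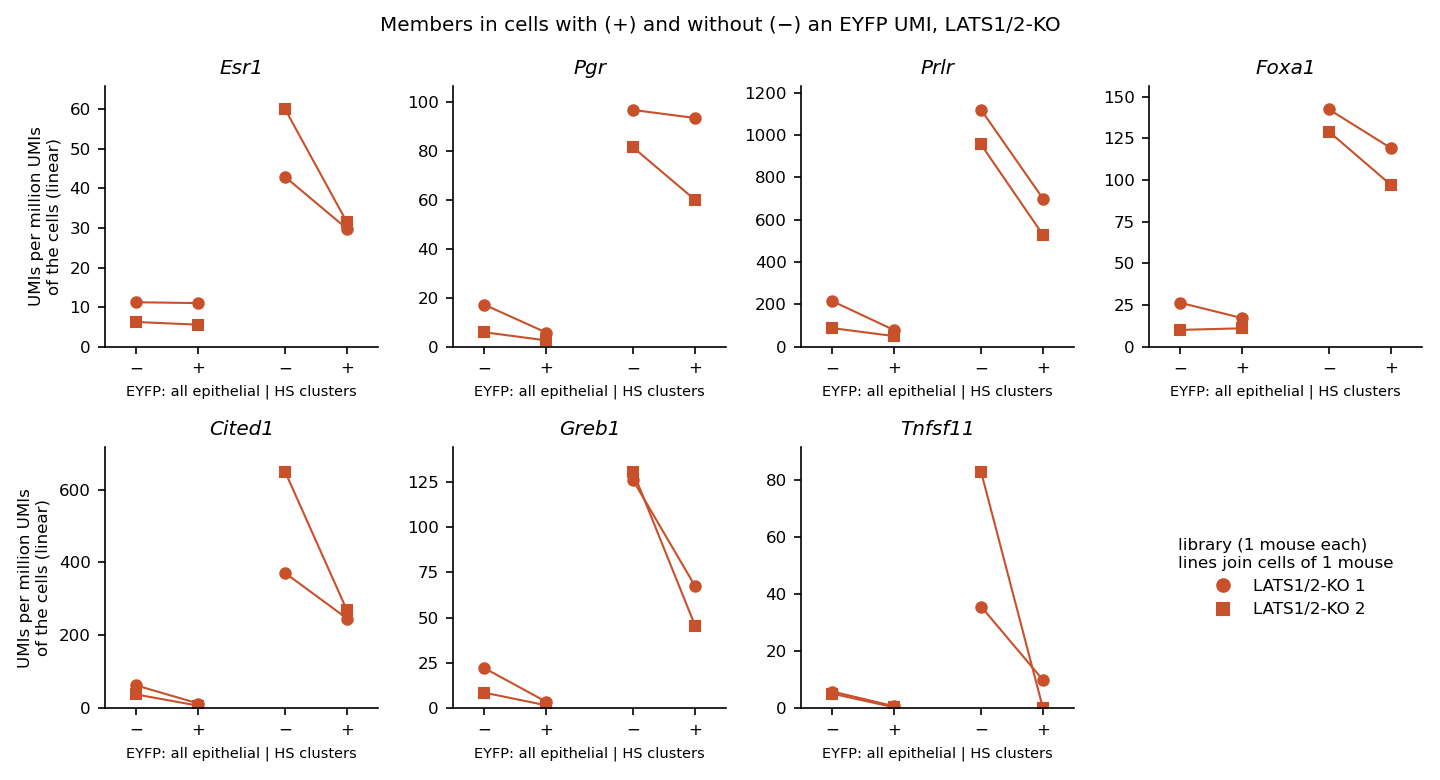
Level of each member in CPM (linear axis) in cells without (−) and with (+) an *EYFP* UMI in the 2 LATS1/2-KO libraries, for all epithelial cells and for cells of the hormone-sensing-like clusters (HS clusters); lines join cells of 1 mouse. In the clusters *Cited1*, *Greb1* and *Tnfsf11* are lower in *EYFP*+ cells of both mice, with *Tnfsf11* at 9.93 and 0 CPM.

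*Tnfsf11* and *Greb1* UMIs tended to share cells. In LATS1/2-KO hormone-sensing-like clusters, 64 and 29 cells held a *Tnfsf11* UMI, and *Greb1* was detected in 78.1% and 82.8% of these against 49.8% and 38.8% of the cells without one. *Pgr* was detected in 60.9% and 75.9% of *Tnfsf11*-positive cells against 47.2% and 43.1% of the others. Their median depths were 7726 against 8650.5 UMIs in replicate 1 and 10383 against 10085.5 UMIs in replicate 2. In CTL, where 29 and 7 cells held a *Tnfsf11* UMI, *Greb1* was detected in 6.90% and 14.3% of them against 10.3% and 33.2% of the rest. These are descriptions of cells of single mice and carry no test.

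The wider pathway was read from 5 lists, described by counts and medians of log2 fold changes. CPM of these list genes carry the TMM scaling of the test. The median of all genes was 0.01 in epithelial and −0.01 in hormone-sensing cells, and the shares of all genes called are given above. Of 15 oestrogen receptor partners, 9 fell and 1 rose in epithelial cells (median −0.43), and 5 fell and 1 rose in hormone-sensing cells (median −0.32). In hormone-sensing cells, *Gata3*, a luminal transcription factor, fell (344, 265, 135 and 142 CPM, −1.14 ± 0.14), as did the chromatin regulator *Kmt2c* (−0.78 ± 0.11) and *Tfap2c* (−0.82 ± 0.24), while *Spdef*, an ETS factor, rose (5.33, 7.21, 27.5 and 26.7 CPM, 2.11 ± 0.20). In epithelial cells the same scale gave −1.28 ± 0.11 for *Gata3*, −1.34 ± 0.11 for *Tbx3* and −1.01 ± 0.11 for *Kmt2c*.

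Of 15 targets and paracrine effectors, 13 were tested in epithelial cells, where 7 fell and 3 rose (median −0.64), and 12 in hormone-sensing cells, where 2 fell and 4 rose (median 0.25). The epidermal growth factor receptor ligand *Areg*, which carries oestrogen signals to neighbouring cells, rose in hormone-sensing cells (1071, 584, 2996 and 2641 CPM, 1.77 ± 0.27), as did *Stc2* (172, 193, 380 and 422 CPM, 1.13 ± 0.11) and *Igfbp4* (1.32, 0.863, 12 and 23.7 CPM, 3.94 ± 0.44). *Igfbp5* (609, 644, 106 and 72.4 CPM, −2.78 ± 0.18) and *Ptn* (−2.21 ± 0.38) fell. In epithelial cells *Ptn* (−4.30 ± 0.87), *Calca* (−3.29 ± 0.53) and *Igfbp5* (−2.71 ± 0.27) fell and *Igfbp4* (3.80 ± 0.20), the chemokine *Cxcl12* (1.67 ± 0.27) and *Igf1r* (0.75 ± 0.22) rose.

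All 12 prolactin signalling genes were tested; in epithelial cells 7 fell and none rose (median −0.57), with *Cish* (−1.80 ± 0.23) and *Socs3* (−1.48 ± 0.13), feedback inhibitors of cytokine receptors, and the STAT5 partner *Elf5* (−1.39 ± 0.16) the lowest. In hormone-sensing cells (median −0.25) 2 fell, *Elf5* (41.9, 45.8, 14.3 and 14.2 CPM, −1.62 ± 0.14) and *Socs3* (−0.81 ± 0.20), and 3 rose, among them the receptor's kinase *Jak2* (22.3, 33.7, 51.7 and 45.1 CPM, 0.80 ± 0.22) and *Stat5a* (37.3, 38.7, 56.1 and 48.1 CPM, 0.47 ± 0.12). The third was the adaptor *Shc1* (0.49 ± 0.13). In these cells *Prlr* thus fell while *Jak2* and *Stat5a* rose, and 7 of the 12 list genes were not called.

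Of 8 other nuclear receptors 7 were tested, of which 3 fell and 2 rose in epithelial cells (median −0.37) and 2 fell and 1 rose in hormone-sensing cells (median −0.41). In hormone-sensing cells the thyroid hormone receptor gene *Thra* (−0.52 ± 0.12) fell while the vitamin D receptor gene *Vdr* rose (12.4, 14.9, 27.5 and 26.1 CPM, 0.98 ± 0.16). In epithelial cells the mineralocorticoid receptor gene *Nr3c2* (−2.33 ± 0.18) and *Thra* (−1.49 ± 0.09) fell and *Vdr* (1.10 ± 0.17) and *Esrra* (0.45 ± 0.09) rose. Of the 7 genes of RANK signalling, which acts downstream of RANKL, 4 fell and none rose in hormone-sensing cells (median −0.63), among them *Nfkb1* (−0.79 ± 0.14), *Relb* (−0.65 ± 0.12) and *Nfkb2* (−0.64 ± 0.17). In epithelial cells 4 fell and 1 rose (median −0.89), the latter *Tnfrsf11b*, the decoy receptor of RANKL (0.920, 0.468, 3.96 and 4.73 CPM, 2.63 ± 0.34). Of the 8 hormone-sensing markers that are no members, 7 fell in epithelial cells (median −1.29) and 2 fell and 3 rose in hormone-sensing cells (median −0.01), with *Fxyd2*, a subunit regulating the sodium pump, at 1070, 716, 3.42 and 4.75 CPM there (−7.87 ± 0.31) and *Prom1* at −2.32 ± 0.24, against *Ly6a* (1.23 ± 0.32), *Stc2* and *Msx2* (0.62 ± 0.15). All of these named values had an edgeR adjusted p under 0.05 and libraries that did not overlap.

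Across 33 sums of a library and a cell class, with the cells of unnamed clusters taken as 1 class, the genes whose log2(CPM + 1) ran most nearly parallel to a member were taken from 13288 genes. They were *Rasgrf1*, *Calca* and *3830417A13Rik* for *Esr1* (Pearson r 0.79, 0.79 and 0.77), *Cldn10*, *Gm16485* and *Ptn* for *Pgr* (0.91, 0.91 and 0.89), *Cited1*, *Sptlc3* and *Krt19* for *Prlr* (0.85 each) and *Tspan1*, *Slc12a2* and *BC030870* for *Foxa1* (0.89, 0.88 and 0.85). For *Cited1* they were *Gsta4*, *Ptn* and *Pgr* (0.89, 0.89 and 0.86), for *Greb1* *Mtmr7*, *Msx2* and *Amer2* (0.76 each) and for *Tnfsf11* the haemoglobin gene *Hba-a1*, *Pirt* and *9130409J20Rik* (0.81, 0.73 and 0.71). Among the members, *Pgr* and *Cited1* were the closest pair (0.86) and *Esr1* and *Tnfsf11* the most distant (0.32). The sums share libraries and depth, so these are descriptions.

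In the other cell classes the members were low. The hormone-sensing-like sums held *Esr1* at 37.6 to 53.6 CPM, and the receptor-negative-like sums at 2.20 to 3.84 CPM. Fibroblast-like sums reached 39.8 CPM of *Esr1* and 47.7 CPM of *Pgr* in CTL replicate 2, on 5 and 6 UMIs in 25 cells, and their lowest values were 3.19 and 4.47 CPM. *Prlr* was the member seen most often outside, at 44.7 to 97.3 CPM in receptor-negative-like sums against 859 to 3488 CPM in hormone-sensing-like ones. The single sum of adipocyte-like cells, 24 cells of 1 library, held no UMI of *Pgr*, *Foxa1*, *Greb1* or *Tnfsf11*.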

How the data were processed

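The deposited values were UMI counts per gene and cell barcode, which the authors made with Cell Ranger (6.1.2 in the matrix headers, 3.1.0 in the submitters' processing notes) on mm10; they were not normalized before deposition. The limits of the study, over 500 genes and less than 20% mitochondrial UMIs, kept 18200 of 20324 barcodes. The study states no doublet removal; Scrublet (scanpy 1.11.5) called only 84 cells, so that its 759 highest scores were left out in an alternative and not in the main setting. Cells were clustered with Seurat 5.3.0 (SCTransform, 20 principal components, resolution 0.4), and a cluster was named from marker lists by a limit set after its values had been seen.

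Since cells of a mouse are not replicates, the UMIs of a class were summed in each library, and 2 LATS1/2-KO mice were compared with 2 CTL mice by the quasi-likelihood test of edgeR 4.0.16 (R 4.3.3), with TMM scaling, filterByExpr and Benjamini-Hochberg adjusted p-values over all genes (threshold 0.05). Sums needed at least 20 cells. Every member was tested in classes defined by the other 6. *EYFP*+ and *EYFP*− cells were compared with the mouse as block. CPM are raw counts scaled to 1000000 UMIs of the summed cells except for list genes other than members, whose CPM are TMM-scaled. Intervals of shares are exact binomial and cover counting error only. The test was checked on simulated counts.

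The members, lists and tests were chosen with earlier results of these data known. Named were all 7 members, list genes past the threshold with libraries that did not overlap (up to the 3 largest and 3 smallest log2 fold changes of a list), and the 3 genes most like each member. A few genes that this rule would name are not reported here. The alternatives were the RLE scaling, DESeq2 1.42.0, genes of low counts kept, other limits for mitochondrial UMIs, *Krt8* plus *Krt18* and members detected, other markers, equal depth, cells thinned to 2000 UMIs, free RNA subtracted (its share taken from collagen UMIs), blocks, and each library left out. Definition by clusters was added after the data had been seen.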

Additional observations from a re-analysis of the deposited data

Results flagged for a closer look

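For 2 members the change between conditions differed between hormone-sensing and other epithelial cells by a test of the difference itself. Both classes came from the same mice, which this test did not take into account. With the mouse as block, *Prlr* and *Foxa1* were called in addition, and the share of all genes called was not computed for that fit. *Cited1* fell less in hormone-sensing cells, by 2.56 on the log2 scale (SE 0.66, edgeR adjusted p = 0.0380), at 1087, 1018, 323 and 581 CPM there against 109, 87.2, 13.1 and 3.71 CPM in other epithelial cells of CTL replicates 1 and 2 and LATS1/2-KO replicates 1 and 2. *Pgr* likewise differed by 1.85 (SE 0.49, edgeR adjusted p = 0.0417), at 171, 149, 86.6 and 72.3 CPM against 19.3, 11.9, 3.81 and 1.54 CPM. By cluster the log2 fold changes were −1.23 in hormone-sensing and −2.72 in other epithelial cells for *Cited1*, and −0.91 and −2.07 for *Pgr*. In CTL epithelial cells outside the hormone-sensing-like clusters both genes were at or below their level outside the epithelial gate (*Cited1* 12.3 and 11.2 against 19.4 and 22.3 CPM, *Pgr* 5.55 and 5.07 against 16.2 and 11.1 CPM). The other epithelial cells also take in cells with 3 members when 1 of these is left out, and the part of either in the difference was not tested. The *Cited1* call was lost without CTL replicate 1 or 2 (edgeR adjusted p = 0.107 and 0.0898), and the *Pgr* call without any 1 of the 4 libraries (edgeR adjusted p = 0.0531 to 0.101).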

How the results depend on the processing

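The tests of the members and the share of hormone-sensing cells were recomputed under other settings, of which cells by cluster was chosen after seeing the data. The pathway lists, the detection in the same cells and the correlations were computed under 1 setting. Of the alternative values for single members, 405 kept direction and side of the threshold, 25 lost a call, 17 gained one and 17 changed sign, 14 of these called in neither setting. *Esr1* in hormone-sensing cells went to −0.23 with at least 2 members, −1.45 with at least 2 and −0.90 with at least 3 of 8 other markers, and between −0.072 and 0.26 when a library was left out. *Esr1* in other epithelial cells went to 1.07 with free RNA subtracted, 0.074 with at least 2 members, 0.073 by cluster, and between −0.66 and 0.27 when a library was left out. *Foxa1* went to 0.34 in other epithelial cells with free RNA subtracted and to 0.10 in thinned hormone-sensing cells. *Greb1* in epithelial cells lay between −0.87 and 1.24 and the difference between cell classes for *Esr1* between −0.36 and 0.89 when a library was left out, and that for *Tnfsf11* was −0.97 under 10% mitochondrial UMIs. Between *EYFP*+ and *EYFP*− epithelial cells thinned to 2000 UMIs, *Esr1* was at 0.29 and *Foxa1* at 0.013. The number of members called in hormone-sensing cells went from 5 to 3 in cells thinned to 2000 UMIs, and in other epithelial cells from 4 to 1 with free RNA subtracted, where *Pgr* stayed at −3.25 with a larger error and *Cited1* was not tested. The difference between cell classes was called for 4 members in place of 2 with the mouse as block, and for 0 to 1 when a library was left out. Between *EYFP*+ and *EYFP*− cells, 3 in place of 5 members were called in epithelial cells with no block and 3 in hormone-sensing cells with at least 2 *EYFP* UMIs, where *Cited1* had too few cells. The difference in the share of hormone-sensing cells was −9.68 percentage points in thinned cells and −12.2 with at least 2 of 8 other markers. When a library was left out, the mouse alone in its group was assumed to vary like the other group.

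Replicate numbers did not pair the mice: deviations from the group means correlated at −0.04, 0.02 and 0.07 across genes in epithelial, hormone-sensing and other epithelial cells. With the replicate block, 6, 5 and 4 members were called in these classes, against 53.8%, 30.4% and 62.6% of all genes. With that block 3 members differed between classes, for which the share of all genes was not computed. Over all genes, 3898 were called in hormone-sensing cells, and 382 to 7614 under the alternatives. Precision was limited by small sums, among them the 136 hormone-sensing cells of LATS1/2-KO replicate 2, the 31 of these with an *EYFP* UMI, the 50 that remained after thinning and the 7 *Tnfsf11* UMIs of CTL replicate 2.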
